A study of Dugesia japonica with 12 samples.

Results

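The RNA content of unexposed whole planarians was described from the 3 control libraries of a series of 12. The planarian is the freshwater flatworm Dugesia japonica, here the clonal strain Dj-NH, collected from a stream and then propagated asexually in the laboratory. The 3 controls are labelled untreated whole worms, with no sampling day given. The other 9 libraries come from worms kept in 64 mg per L glyphosate for 1, 3 or 5 days, and none of their values is described. All libraries were made from polyadenylated RNA, and nothing in the labels says how many worms went into each library or whether the replicates came from separate cultures. The spread between libraries may therefore be technical.

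All 30535 genes of the deposited table were ranked by their mean over the 3 control libraries, in TPM (transcripts scaled to a common library total), a level corrected for transcript length and for the library total. A gene here is an identifier of a transcript assembly, and a protein name is that of its most similar database entry, which does not identify the gene. Of these genes, 16468 (53.9%) reached at least 1 TPM in all 3 controls, 687 averaged over 100 TPM and 75 averaged over 1000 TPM. Another 700 were at 0 in all 3. The libraries summed to 980546, 985585 and 986268 TPM. TPM keeps no read counts, so the depth behind each value is unknown. Identifiers that share a cluster of the assembly, as 16525 of them do, may be pieces or copies of the same gene and may split its reads.

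Planarians are known for rebuilding any lost body region, and the cells behind this are neoblasts, adult stem cells that are the only dividing somatic cells of the animal. A whole-worm library mixes neoblasts with muscle, gut, nerve, epidermal, excretory and gland cells. In such a mixture, fewer cells of a type and less RNA per cell cannot be told apart.

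A pair of short transcripts without any database hit held 36.0, 45.5 and 53.7% of all TPM in control libraries 1, 2 and 3. The highest gene of the worm, TRINITY_DN37864_c2_g1, is 266 bases long and had 294956, 427889 and 413821 TPM. It ranked first in every library and took 30.1, 43.4 and 42.0% of the total. The gene in second place, TRINITY_DN36963_c0_g5, is 231 bases long and had 57991, 20207 and 116142 TPM. It was the least steady of the pair, with library 3 highest, library 2 lowest and a coefficient of variation (CV, the SD over the mean) of 74.6%, against 19.3% for the first. The other 3 of the 5 highest genes without a hit were far lower: TRINITY_DN34348_c1_g2 had 4980.0, 4992 and 4171 TPM, TRINITY_DN37002_c2_g4 had 3571, 4741 and 5406 TPM and TRINITY_DN35101_c0_g1 had 2258, 5114 and 1440.2 TPM. Of these, the first was nearly level across the libraries and the last was over 2 times higher in library 2 than in either other library.

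TPM values share a fixed total, so the level of every other gene depends on the height of this pair. With all genes, 6 genes together reached 50% of the mean total, and the number was 11, 8 and 2 within libraries 1, 2 and 3. The count was 3 without library 1 and 10 without library 3. When the pair was left out and each library rescaled, 217 genes reached 50% (174, 216 and 241 by library). The 10 highest genes held 53.2% of the mean total, the 100 highest 66.0%, the 1000 highest 84.5% and the 5000 highest 93.9%. The median gene stood at 2.65, 1.88 and 1.86 TPM in libraries 1, 2 and 3, highest in the library where the pair took least.

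**Figure D1:**
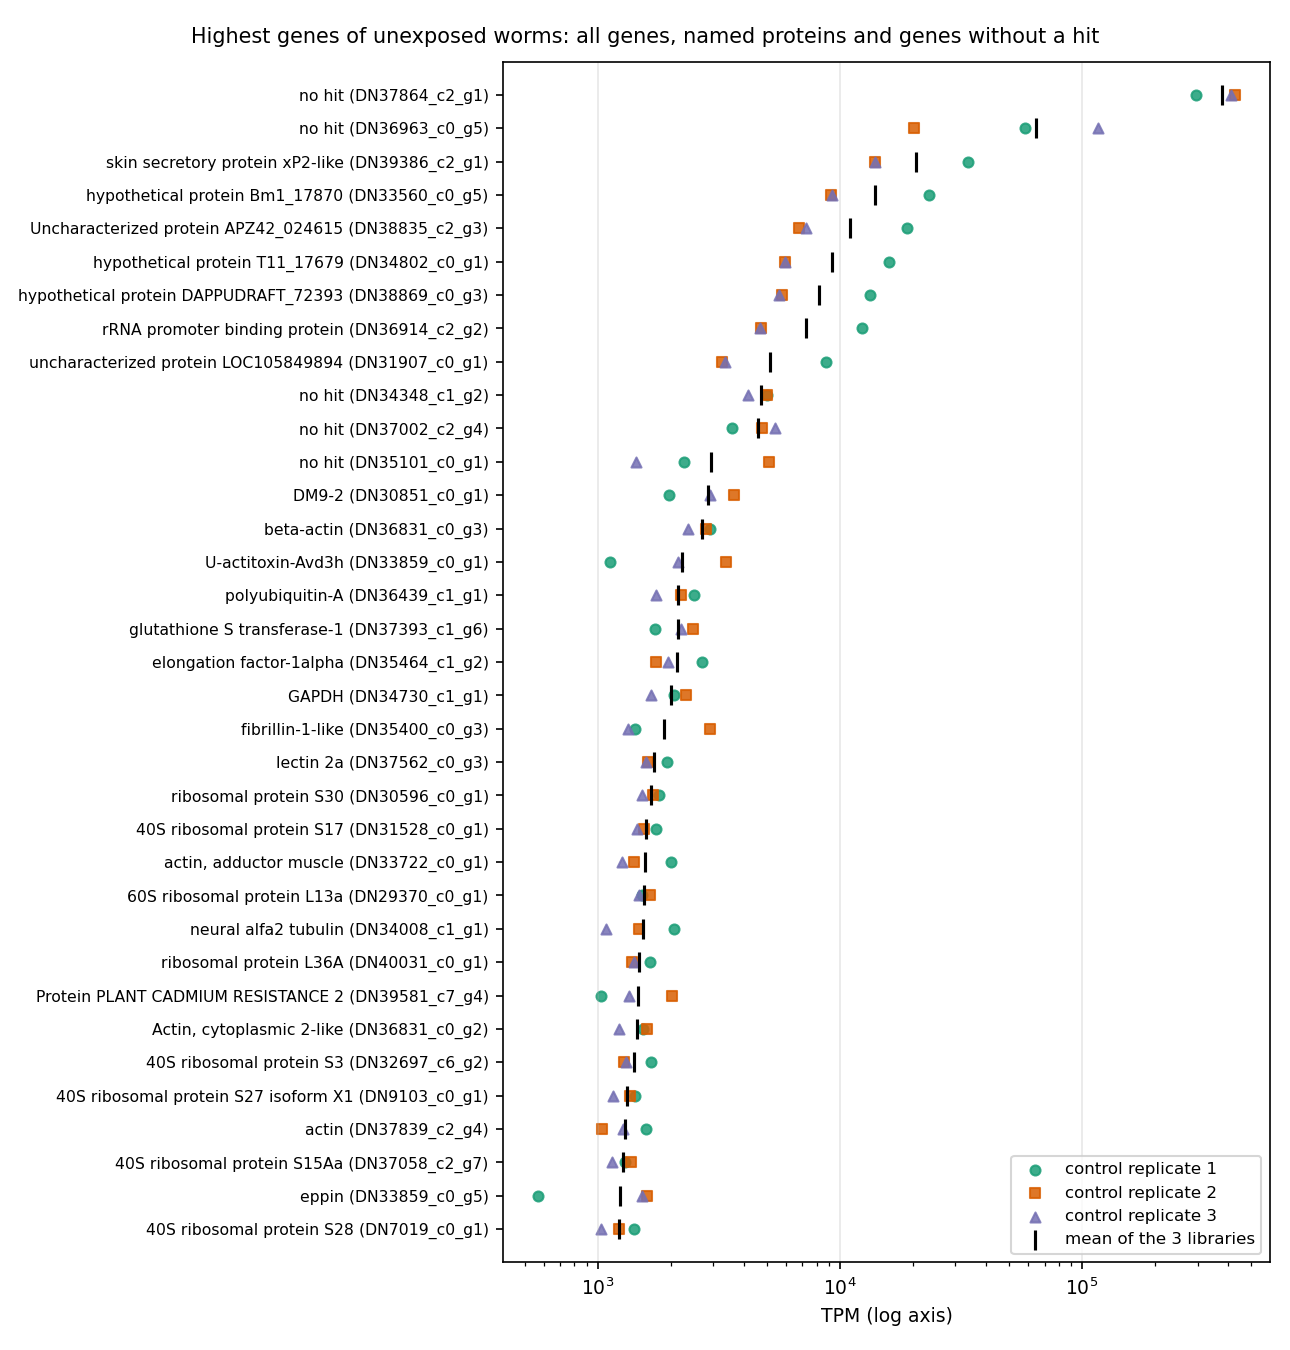
TPM on a log axis for the 10 highest genes of all, the 25 highest whose hit names a protein and the 5 highest without a hit, ranked by the mean of the 3 control libraries (bar) with each library as a point; TRINITY_ is left off the identifiers. The 7 genes directly below the top pair form a run in which library 1 lies to the right of libraries 2 and 3, while most ribosomal protein points lie close together.

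Below the top pair came a set of genes that moved together. Of the 14 highest genes, 8 had hits and were over 2 times higher in library 1 than in both others, and TRINITY_DN37210_c1_g3, further down but also over 1000 TPM on average, did the same. Together these 9 summed to 135967, 51435 and 52375 TPM, or 13.9, 5.22 and 5.31% of the total in libraries 1, 2 and 3. The set was chosen after its values were seen, by exactly that difference, so the difference is a description. Gene by gene, library 1 stood 2.30 to 5.43 times above library 2 and 2.38 to 4.22 times above library 3, while library 3 was 0.968 to 1.47 times library 2.

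What the 9 hits share was not part of the choice. Only 2 name a protein: TRINITY_DN39386_c2_g1 was closest to a skin secretory protein xP2-like entry of cattle, and TRINITY_DN36914_c2_g2 to an rRNA promoter binding protein of the tapeworm Echinococcus granulosus. The xP2-like gene had 33866, 13969.6 and 13922 TPM and the rRNA promoter binding protein gene had 12379, 4699.5 and 4665 TPM. The others resembled hypothetical or uncharacterized proteins of roundworms, water fleas, Hydra and a tapeworm, and TRINITY_DN38835_c2_g3, with 18887, 6767 and 7219 TPM, also matched the yeast entry ART2 in Swiss-Prot. ART2 and TAR1 are known in yeast as reading frames that lie antisense within the ribosomal RNA genes. Over the whole table, 6 genes had ART2 or TAR1 as their Swiss-Prot hit, and these held 2.16, 0.729 and 0.801% of the total in libraries 1, 2 and 3. Among them was TRINITY_DN34860_c2_g6 (TAR1; the annotation hit is a basic proline-rich protein of goat), with 1417, 208 and 413 TPM. Whether ribosomal RNA contributed to any of these values was not tested.

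Rows were then sorted by the kind of hit. A flatworm hit is an annotation hit from any flatworm genus, an other hit is any other database match, and the rest have no hit in any column. Flatworm hits were the smallest class of genes (4258, 13.9%) and held 16.0, 13.7 and 12.0% of TPM in libraries 1, 2 and 3 (13.9 ± 1.99%, SD, n = 3). Other hits (8827, 28.9% of genes) held 30.9, 22.0 and 19.8% (24.3 ± 5.91%). The 17450 genes without a hit, 57.1% of the table, held 53.0, 64.3 and 68.2% (61.8 ± 7.87%). The order of the classes was the same in every library, but their shares depended on a few genes. Without the top pair, genes without a hit held 26.6, 34.6 and 31.2% (30.8 ± 3.98%), other hits 43.8 ± 4.09% and flatworm hits 25.4 ± 0.586%. Leaving out the 9 genes of the library 1 set as well brought the 3 classes to 35.8 ± 2.16% for no hit, 36.3 ± 0.966% for other hits and 27.9 ± 1.21% for flatworm hits. Weighted by transcript length, a rough stand-in for sequenced bases, genes without a hit held 35.2 ± 7.44%, other hits 41.7 ± 6.93% and flatworm hits 23.1 ± 0.639%. How well this weighting holds for transcripts as short as the top pair was not tested.

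**Figure D2:**
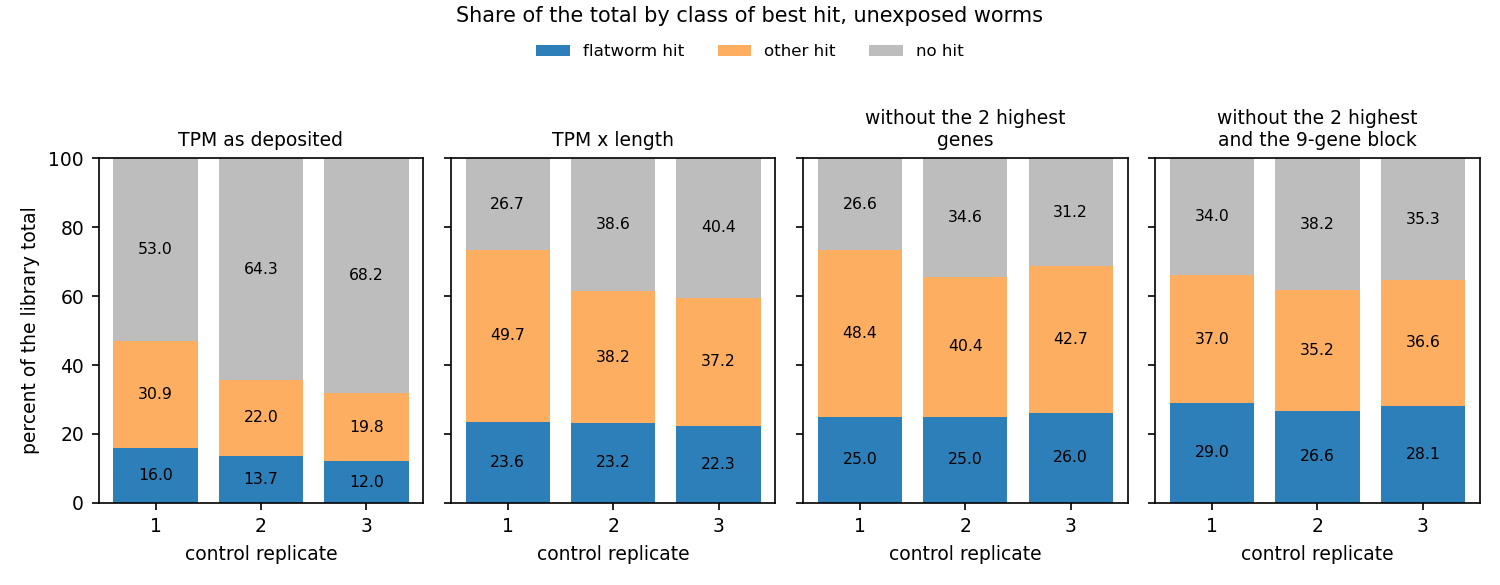
Stacked bars of the percent of each control library's total in genes with a flatworm hit, another hit or no hit, for TPM as deposited, TPM times length, TPM without the 2 highest genes and TPM without those and the 9-gene set that is high in library 1. The no-hit class holds 53.0 to 68.2% of deposited TPM and 26.6 to 34.6% once the 2 highest genes are left out, while the flatworm share then is nearly the same in the 3 libraries.

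The classes differed in length and in steadiness. The median length was 1297 bases for flatworm hits, 821 for other hits and 288 for no hit. The median level was 5.41, 3.08 and 1.43 TPM, in the same order. At least 1 TPM in all 3 libraries was reached by 86.7% of flatworm hits, 69.0% of other hits and 38.3% of genes without a hit. The median CV was 25.2, 30.6 and 59.6%. Among genes of at least 1 TPM in all 3 libraries the medians lay much closer, at 23.4, 23.7 and 28.3%. Genes without a hit were most frequent at low levels. Among genes of mean rank 11 to 5000 they made up 29.8 to 35.6% of each band, against 76.1% of the lowest band (ranks 20001 to 30535), where the median length was 256 bases and the median CV 91.0%. Within the flatworm class, hits to parasitic flukes and tapeworms came from 2835 genes and held 9.20% of mean TPM, hits to Schmidtea, the other common laboratory planarian, from 1032 genes (2.16%), hits to Dugesia itself from 355 genes (2.11%) and hits to Girardia from 31 genes (0.409%).

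The 25 highest genes whose hit names a protein ended at rank 51 of all genes, at 1220.4 TPM. Besides the xP2-like and rRNA promoter binding entries, they were mostly the machinery that nearly every animal cell makes, and 8 of the 25 were cytosolic ribosomal proteins. Proteins of the small ribosomal subunit, which reads the messenger, led this group. Ribosomal protein S30 (TRINITY_DN30596_c0_g1) had 1782, 1685 and 1521 TPM, S17 (TRINITY_DN31528_c0_g1) had 1730.3, 1548 and 1452 TPM and S28 (TRINITY_DN7019_c0_g1) had 1412, 1218 and 1031 TPM. S3, S27 and S15Aa averaged 1415, 1314 and 1269 TPM. From the large subunit, which joins amino acids, L13a (TRINITY_DN29370_c0_g1) had 1525, 1643 and 1471 TPM and L36A (TRINITY_DN40031_c0_g1) had 1639, 1387 and 1407 TPM. None of these 8 differed by more than 1.5 times between its highest and lowest library.

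Translation was represented further by elongation factor 1 alpha (TRINITY_DN35464_c1_g2), which brings aminoacyl-tRNA to the ribosome, with 2684, 1738 and 1952 TPM. Protein turnover was represented by polyubiquitin (TRINITY_DN36439_c1_g1), the precursor of the tag that marks proteins for the proteasome, with 2489.7, 2198 and 1730.2 TPM. Glyceraldehyde 3-phosphate dehydrogenase (TRINITY_DN34730_c1_g1), a glycolytic enzyme, had 2067, 2318 and 1654 TPM. Library 1 was highest for the first pair and library 2 for the glycolytic enzyme. Once rescaled without the 2 highest genes, the CV of polyubiquitin was 3.79%, against 17.9% as deposited.

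The cytoskeleton gave 5 of the 25. Beta-actin (TRINITY_DN36831_c0_g3), the subunit of actin filaments, had 2909, 2800.1 and 2349.7 TPM and was the highest cytoskeletal gene. An adductor muscle type actin (TRINITY_DN33722_c0_g1) had 2006, 1415 and 1258 TPM. A cytoplasmic actin fragment (TRINITY_DN36831_c0_g2), of 260 bases and in the same assembly cluster as beta-actin, had 1543, 1601 and 1217 TPM, and another actin (TRINITY_DN37839_c2_g4) averaged 1298 TPM. Since actins form a family of near-identical members, their single values are uncertain. An alpha tubulin (TRINITY_DN34008_c1_g1; the name of the hit, neural alfa2 tubulin, is that of sea urchin), a subunit of microtubules, had 2054, 1475 and 1075 TPM, highest in library 1 and lowest in library 3.

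The remaining named genes were secreted, binding or detoxifying proteins. DM9-2 (TRINITY_DN30851_c0_g1), named after a domain first described in Drosophila, had the highest mean of the genes with an informative name, at 1958, 3665 and 2893 TPM. A glutathione S-transferase (TRINITY_DN37393_c1_g6), an enzyme that joins glutathione to reactive compounds, had 1729, 2468 and 2199.6 TPM. A fibrillin-1-like gene (TRINITY_DN35400_c0_g3), named after an extracellular microfibril protein, had 1417, 2892 and 1337 TPM. The first of these was lowest in library 1, as was the second, and the fibrillin-1-like gene was over 2 times higher in library 2 than in the others. Lectin 2a (TRINITY_DN37562_c0_g3), a carbohydrate-binding protein described in the planarian Girardia tigrina, had 1926, 1606 and 1581 TPM. A gene close to PLANT CADMIUM RESISTANCE 2 (TRINITY_DN39581_c7_g4), a name given to a membrane protein of plants, had 1028, 2031 and 1349 TPM.

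The last 2 of the 25 resembled inhibitors of serine proteases. TRINITY_DN33859_c0_g1 matched the sea anemone toxin U-actitoxin-Avd3h and had 1117, 3384 and 2144 TPM, and TRINITY_DN33859_c0_g5, in the same cluster, matched eppin and had 567, 1602 and 1517 TPM. Both were lowest in library 1. They carry the Kunitz domain, a small disulfide-bonded fold that blocks trypsin-like proteases.

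Summed by Pfam domain family (2762 families over 10229 genes, chosen after the values were seen), the Kunitz family had the highest mean, just above actin. Its 17 genes summed to 4152, 11143 and 9287 TPM in libraries 1, 2 and 3, and 27.0% of that lay in its highest gene. Actin (32 genes) summed to 9009, 7876 and 6935 TPM. Kunitz was the highest family in libraries 2 and 3 but ranked 9 in library 1, where actin was highest. Without library 2 the means were 6719 TPM for Kunitz and 7972 TPM for actin, and without library 3 they were 7647 and 8443 TPM, so that actin then led. Next came DUF3421, the Pfam name of the DM9 domain (12 genes, 5020.0, 8573 and 6184 TPM). Ubiquitin (69 genes) averaged 5009 TPM and tubulin (30 genes) 4773 TPM. Protein kinases were by far the most numerous of the 10 highest families, with 554 genes, yet summed to 4278 TPM on average. The cold shock domain family, known for RNA-binding Y-box proteins that package messengers, held 10 genes and 4864, 3836 and 3671 TPM. Its highest member, a Y-box protein gene (TRINITY_DN36306_c1_g3), had 1369, 973 and 952 TPM. The 14-3-3 family, adaptors that bind phosphorylated proteins, summed to 2731, 1752 and 1842 TPM over 11 genes.

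Functions were compared through 23 lists of protein name patterns, which together caught 3280 genes and 15.1 ± 1.83% of TPM, or 27.5 ± 1.10% of what remained without the 2 highest genes (SD, n = 3). For scale, the median over all genes was 2.00 TPM, and over the listed genes 3.96 TPM. Cytosolic ribosomal proteins were the largest list, with 6.26, 5.25 and 4.85% of the total in libraries 1, 2 and 3. Of its 378 members, only 79 averaged over 100 TPM, yet these 79 held 5.28 ± 0.676% of the total, nearly all of the list's 5.45 ± 0.727%. By the wording of their hits, 46 of the 79 were large subunit and 32 small subunit proteins, with medians of 604 and 570 TPM. Among the lower members, Swiss-Prot hits to Caenorhabditis, the ciliate Tetrahymena and the plant Arabidopsis were frequent. Rescaled without the 2 highest genes, ribosomal proteins held 9.78, 9.63 and 10.5% of the rest, so that library 3 was then the highest and not the lowest.

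Actins and their regulators (69 genes) followed with 0.921 ± 0.113%. Energy metabolism was spread over several lists. The list named nuclear-encoded oxidative phosphorylation (145 genes) held 0.830 ± 0.0609%, but its pattern also caught mitochondrially encoded subunits. With each gene counted only in the first list it matched, it held 0.614%, below the tubulins (0.679%). It was led by a mitochondrial carrier named slc25a-30 (TRINITY_DN32615_c0_g1) with 1509, 859 and 1058 TPM. Swiss-Prot names this gene an ADP,ATP carrier, which exchanges these nucleotides across the inner membrane. Glycolysis and the citric acid cycle (86 genes) held 0.530 ± 0.0771%, with malate dehydrogenase (TRINITY_DN31495_c3_g3) at 489 TPM and fructose-bisphosphate aldolase (TRINITY_DN34655_c3_g3) at 406 TPM on average. Mitochondrially encoded subunits (57 genes) held 0.217 ± 0.0152%, although the pattern also caught nuclear genes such as cytochrome b-c1 subunit 8 (TRINITY_DN14673_c0_g1, 442 TPM). The 13 members with a flatworm hit held 0.0761%. Among the highest of the others was cytochrome c oxidase subunit I with a Bos javanicus hit (235 TPM).

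Protein turnover and folding came next. Ubiquitin and the proteasome (351 genes) held 0.805 ± 0.0993%, chaperones (176 genes) 0.631 ± 0.101% and translation factors (90 genes) 0.597 ± 0.132%. The highest chaperones were a peptidyl-prolyl cis-trans isomerase (TRINITY_DN30839_c0_g1), which speeds folding at prolines, with 690.5, 643 and 622 TPM, and heat shock protein 70 (TRINITY_DN36275_c0_g1), which holds unfolded proteins, with 521, 343 and 341 TPM. The chaperone at 652 TPM was among the steadier genes, while heat shock protein 70 was highest in library 1. RNA processing (289 genes) held 0.564 ± 0.0829% and secretory traffic (201 genes) 0.516 ± 0.0563%.

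Motility and structure followed. Tubulins (49 genes) held 0.919, 0.587 and 0.530% in libraries 1, 2 and 3, the most uneven of the large lists, and were still highest in library 1 after rescaling (1.44, 1.08 and 1.15% of the rest). Cilia and axoneme genes (137) held 0.394 ± 0.0449%. They were led by dynein light chains, of which TRINITY_DN34247_c0_g1 averaged 1213 TPM. Such light chains also serve cytoplasmic motors, so the list is not made of ciliary genes alone. Contractile proteins of muscle (49 genes) held 0.361 ± 0.0715%, and collagens with other matrix proteins (68 genes) 0.318 ± 0.0933%, much of it from the fibrillin-1-like gene. Intermediate filaments and lamins (11 genes) held 0.0261 ± 0.0113%.

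Metal and oxygen handling, which includes glutathione S-transferases, held 0.721 ± 0.0858% over 113 genes. Selenoprotein W (TRINITY_DN33864_c1_g1), a small redox protein, had 756, 846 and 623 TPM. Cathepsins and lysosomal hydrolases (77 genes) held 0.377, 0.590 and 0.448%, and digestive enzymes (128 genes) 0.164 ± 0.00865%. Ion pumps, channels and carriers were the longest list with 396 genes but held 0.380 ± 0.0556%. Histones (51 genes), which package DNA, held 0.222 ± 0.0250%, with a median CV of 21.0%. Transposons and retroelements counted 302 genes and held 0.0727 ± 0.0249%, and none of them averaged over 100 TPM. As deposited, 15 of the 23 lists were highest in library 1 and 6 in library 2. Single genes leaned the same way: of the 16468 of at least 1 TPM in all 3 libraries, 10455 were highest in library 1 and 4123 in library 2. Of the 687 over 100 TPM, 341 and 324 were. The count of lists is therefore no trait of the lists. After rescaling, 6 lists were highest in library 1 and 9 in library 2. The order of libraries within a list thus depended on the 2 highest genes, while the 5 largest lists stayed the same.

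**Figure D3:**
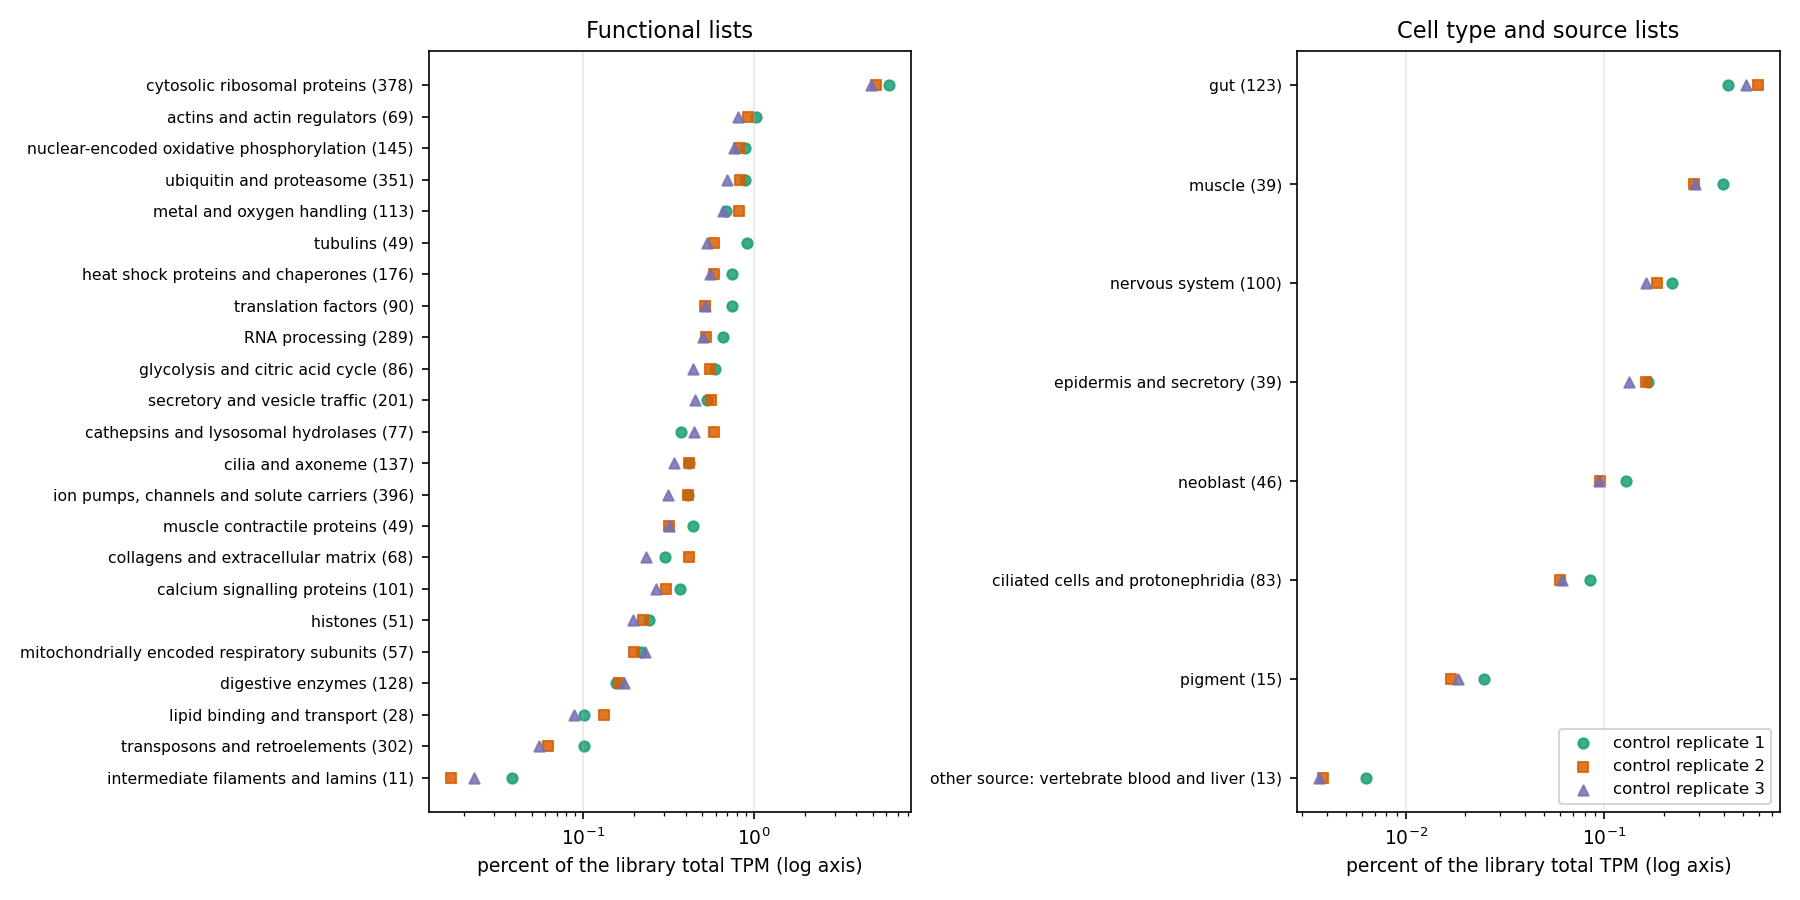
Percent of the library total (log axis) in each functional list (left) and in each cell type or source list (right) for control libraries 1, 2 and 3, with the number of genes in parentheses. Ribosomal proteins stand apart at 4.85 to 6.26%, and actins, the next list, reach at most 1.03%.

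Every list of planarian cell type markers had members of at least 1 TPM in all 3 libraries, in amounts that differed widely. These lists rest on protein names and describe levels only. Neoblast markers (46 genes) held 0.106 ± 0.0193% of the total, and 33 of the 46 reached at least 1 TPM in all 3 libraries. For scale, 86.7% of all flatworm hits and 69.0% of all other hits did so. A pair of planarian piwi genes, which guard the genome of stem cells against transposons, had the highest means of the list: DjPiwiB (TRINITY_DN38791_c0_g1) had 142, 89.6 and 103 TPM and DjPiwiA (TRINITY_DN34216_c3_g2) had 135, 90.2 and 97.3 TPM. The large subunit of ribonucleotide reductase (TRINITY_DN36066_c1_g1), which makes DNA precursors, followed with 126, 90.8 and 100.5 TPM. DjPiwiC (TRINITY_DN35446_c2_g6), named after its values were seen, was lower, with 90.3, 55.3 and 65.5 TPM. The 3 piwi genes ran highest in library 1 and lowest in library 2. DjVLGA (TRINITY_DN35646_c1_g2), a vasa-like RNA helicase, had 66.3, 68.5 and 50.5 TPM, and a tudor protein gene (TRINITY_DN34489_c4_g1) had 68.9, 41.9 and 51.5 TPM. Proliferating cell nuclear antigen, which holds the DNA polymerase on its template, was represented by a pair of genes that did not run in parallel. The one with a Dugesia japonica hit (TRINITY_DN28542_c0_g1) had 54.9, 30.9 and 34.2 TPM and the one with an annelid hit (TRINITY_DN36658_c0_g1) had 58.4, 109 and 49.9 TPM, highest in library 2.

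Muscle markers (39 genes) held 0.322 ± 0.0657%, and 8 averaged over 100 TPM. Myosin regulatory light chain (TRINITY_DN29499_c0_g1), a subunit of the contractile motor, had 705, 629 and 568 TPM, and a myosin essential type light chain (TRINITY_DN38715_c0_g5) had 629, 410.1 and 422 TPM. Titin, paramyosin and troponin I were lower, at 70.9, 54.5 and 53.1 TPM on average (TRINITY_DN32588_c0_g1, TRINITY_DN33742_c1_g2 and TRINITY_DN30939_c0_g1, chosen after their values were seen). Each of these 3 was highest in library 1 and lowest in library 2.

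Gut markers (123 genes) were the largest cell type list, with 0.419, 0.593 and 0.515%. Their name pattern overlaps with that of cathepsins and lysosomal hydrolases, and the same 3 genes have the highest means in both lists. The size of the list is therefore not a measure of gut alone. Planarian gut phagocytes digest food within the cell, which calls on lysosomal proteases. Cathepsin B (TRINITY_DN32796_c3_g9) was steady, with 410.1, 449 and 430.4 TPM, whereas a cathepsin L1 gene (TRINITY_DN37524_c0_g3) had 171, 770.3 and 294 TPM and was over 2 times higher in library 2 than in the others. The highest gene of the list, Niemann-Pick C 2 like (TRINITY_DN38223_c3_g1), named after a lysosomal cholesterol carrier, had 329, 734 and 1037 TPM. A trypsin-like serine protease of Dugesia japonica (TRINITY_DN37049_c0_g2) had 207, 276 and 465 TPM, and it too was highest in library 3. After rescaling, the list was lowest in library 1 (0.654, 1.09 and 1.11% of the rest).

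Nervous system markers (100 genes) held 0.189 ± 0.0290%, and 86 of the 100 reached at least 1 TPM in all 3 libraries. Of all flatworm hits 86.7% did so, and of all other hits 69.0%. The 2 highest means were those of peptide genes: neuropeptide precursor-2 (TRINITY_DN33378_c0_g5) had 494, 329 and 259 TPM and neuropeptide-17 (TRINITY_DN19815_c0_g1) had 234, 234 and 177 TPM. Vesicle-associated membrane protein 3 (TRINITY_DN32713_c1_g8), of a family that fuses vesicles with their target membrane, followed with 140.4, 228 and 147 TPM and was highest in library 2. Neuropeptide-3 (TRINITY_DN24495_c0_g1, chosen after its values were seen) had 164, 140.4 and 133 TPM. All 45 genes with neuropeptide or prohormone in the name summed to 1826, 1543 and 1319 TPM. Of these, 42 reached at least 1 TPM in every library, against the same 86.7% of flatworm hits and 69.0% of other hits. Synapsin (TRINITY_DN34124_c0_g1), a protein of synaptic vesicles, was lower with 46.4, 26.8 and 31.1 TPM. When the 2 highest genes were left out, the peptide genes lay between 99.3 and 101% of their own mean in the 3 libraries, and the nervous system list at 0.343, 0.338 and 0.350% of the rest.

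Epidermal and secretory markers (39 genes) held 0.154 ± 0.0178%, mostly through tetraspanins, a family of membrane-spanning proteins. The share is not a measure of epidermis, since whether these tetraspanins belong to it was not tested. The highest, a CD82 antigen-like gene (TRINITY_DN31866_c0_g2), had 276, 267 and 239 TPM. An intermediate filament gene (TRINITY_DN33176_c0_g1) had 207, 78.7 and 120.2 TPM, highest in library 1 and lowest in library 2. Markers of ciliated cells and protonephridia, the excretory organs, counted 83 genes and 0.0686 ± 0.0142%, with radial spoke head protein 9 (TRINITY_DN30521_c0_g2), part of the moving axoneme, at 71.5, 75.6 and 49.9 TPM. Pigment markers were the smallest planarian list, with 15 genes and 0.0201 ± 0.00421%. All 15 reached at least 1 TPM in every library, against 69.0% of all other hits and 86.7% of all flatworm hits. Body pigment of the planarian Schmidtea mediterranea is made of porphyrins and ommochromes, and porphobilinogen deaminase (TRINITY_DN37862_c1_g1), an enzyme of porphyrin synthesis, had 72.8, 32.5 and 50.5 TPM.

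Steadiness was read from the CV over the 3 libraries, which with so few libraries is itself uncertain. Across genes, Pearson correlations of log2(TPM + 1) were 0.909 for libraries 1 and 2, 0.914 for 1 and 3, and 0.933 for 2 and 3, over all 30535 genes that share the same assembly and are not independent. Among the 100 highest genes the median CV was 18.3% (quartiles 12.0 and 42.8%), 12 lay under 10% and 19 over 50%. Of the 100, 86, 91 and 93 were also among the 100 highest of libraries 1, 2 and 3 taken alone, and 76 were so in all 3. The 29 with a flatworm hit had a median CV of 14.3%, the 35 without a hit 20.3% and the 36 with another hit 24.7%. The 23 ribosomal proteins among them had a median CV of 10.9% and a highest CV of 24.2%.

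The 5 steadiest of the 100 highest named genes, picked by their CV, were of the translation and housekeeping kind. Ribosomal proteins made up 47 of the 100, so such names among the 5 are no result about translation. Ribosomal protein L22 (TRINITY_DN33170_c3_g1) had 1156, 1137 and 1115 TPM, a CV of 1.80%. Nucleoside diphosphate kinase 1 (TRINITY_DN28378_c0_g1), which balances the nucleotide pools, had 842, 859.8 and 813 TPM, a CV of 2.85%. Ribosomal protein P2 (TRINITY_DN27532_c0_g1), the nuclear transport GTPase Ran (TRINITY_DN33145_c1_g1) and the ubiquitin-L40 fusion (TRINITY_DN33189_c2_g6) had CVs of 4.48, 4.84 and 5.21%. This steadiness belongs to the deposited scale: rescaled without the 2 highest genes, the CV of L22 was 14.1% and that of nucleoside diphosphate kinase 1 was 14.0%. Over the 79 ribosomal protein genes above 100 TPM, in contrast, the median CV was 15.2% as deposited and 9.32% rescaled, against 19.0 and 15.2% for all 687 genes above 100 TPM.

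The most variable of those 100 were of a few kinds. The 5 largest CVs belonged to the xP2-like and rRNA promoter binding genes, the TAR1 gene above, a FAM117B-like gene (TRINITY_DN37210_c1_g4) and the TCEN gene. The FAM117B-like gene shares an assembly cluster with a member of the 9-gene set and had 1269, 217 and 381 TPM. TCEN (TRINITY_DN23309_c0_g1), a protein known as a marker of the central body region in the planarian Girardia tigrina, had 389, 1422 and 312 TPM, a CV of 87.6%. The first 4 were highest in library 1 and TCEN in library 2.

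**Figure D4:**
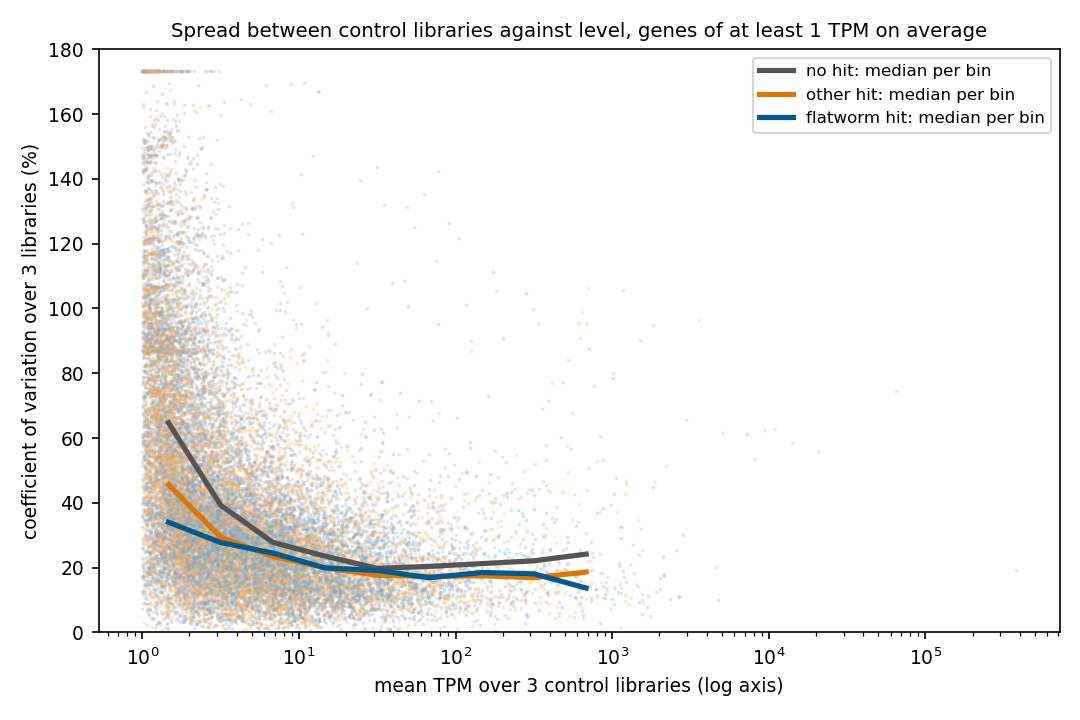
Coefficient of variation over the 3 control libraries against mean TPM (log axis) for genes of at least 1 TPM on average, coloured by class of hit, with the median of each class in 9 level bins up to 1000 TPM. In the highest bin the medians are 13.7% for flatworm hits and 24.2% for genes without a hit. In the bin from 4.64 to 10 TPM they are 24.5% for flatworm hits, 23.4% for other hits and 27.8% for no hit.

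Each library had genes of its own that stood apart. Among genes averaging over 100 TPM, 22 were over 2 times higher in library 1 than in both others, 23 in library 2 and 5 in library 3. After rescaling the numbers were 10, 17 and 5. These genes were picked by that difference, so only their names are of interest. Genes without a hit made up 4 of the 22, 14 of the 23 and 3 of the 5, against 32.0% of all 687 genes over 100 TPM. Among those of library 2 was TRINITY_DN1982_c0_g1 with 882, 3814 and 764 TPM. The named ones included TCEN, the cathepsin L1 gene and 3 astacin-like genes. Ast6 (TRINITY_DN34328_c1_g1), a secreted zinc metalloprotease, had 109, 621 and 112 TPM, and Ast4 (TRINITY_DN34638_c1_g1) had 67.2, 398 and 57.6 TPM. All 9 genes named Ast summed to 577, 1837 and 570.4 TPM, and 7 of the 9 were highest in library 2. The 3 astacin-like genes picked above for being high in library 2 count among the 7, so this share is a description. By comparison, 324 of the 687 genes over 100 TPM were highest in library 2. Of the 16468 genes of at least 1 TPM in all 3 libraries, 4123 were. Ast8 (TRINITY_DN38870_c2_g1), with 62.0, 80.8 and 136 TPM, was highest in library 3. A proteolipid subunit of the V-type proton pump (TRINITY_DN36472_c0_g5), which acidifies vesicles, had 314, 849.7 and 371 TPM, and a venom allergen 5 gene (TRINITY_DN38708_c3_g2) had 99.4, 409 and 90.7 TPM.

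Most Kunitz genes (12 of the 17) were also highest in library 2, but their sum in library 3 stood well above that in library 1. Of the 17, 12 were lowest in library 1 (70.6%), against 18.8% of all genes over 100 TPM and 14.7% of those of at least 1 TPM in all 3. The family stood at 50.7, 136 and 113% of its own mean in libraries 1, 2 and 3, or 41.6, 130.4 and 128% after rescaling. A papilin gene (TRINITY_DN31452_c0_g1), the longest of the family, was among those that did not follow, with 2.62, 1.98 and 1.76 TPM. In the DM9 family the highest genes were lowest in library 1 as well, but several lower members were level, such as the gene similar to a schistosome SJCHGC04453 protein (TRINITY_DN32436_c0_g1), with 208, 216 and 195 TPM. In library 3 the 5 genes that stood apart were the second highest gene of the worm, 2 more without a hit, a Kunitz protein 8 gene (TRINITY_DN24776_c0_g1) with 58.1, 136 and 290.1 TPM, and cytochrome c oxidase subunit II of Dugesia japonica (TRINITY_DN39458_c5_g8), a mitochondrially encoded subunit of respiration, with 128, 111 and 259.7 TPM.

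**Figure D5:**
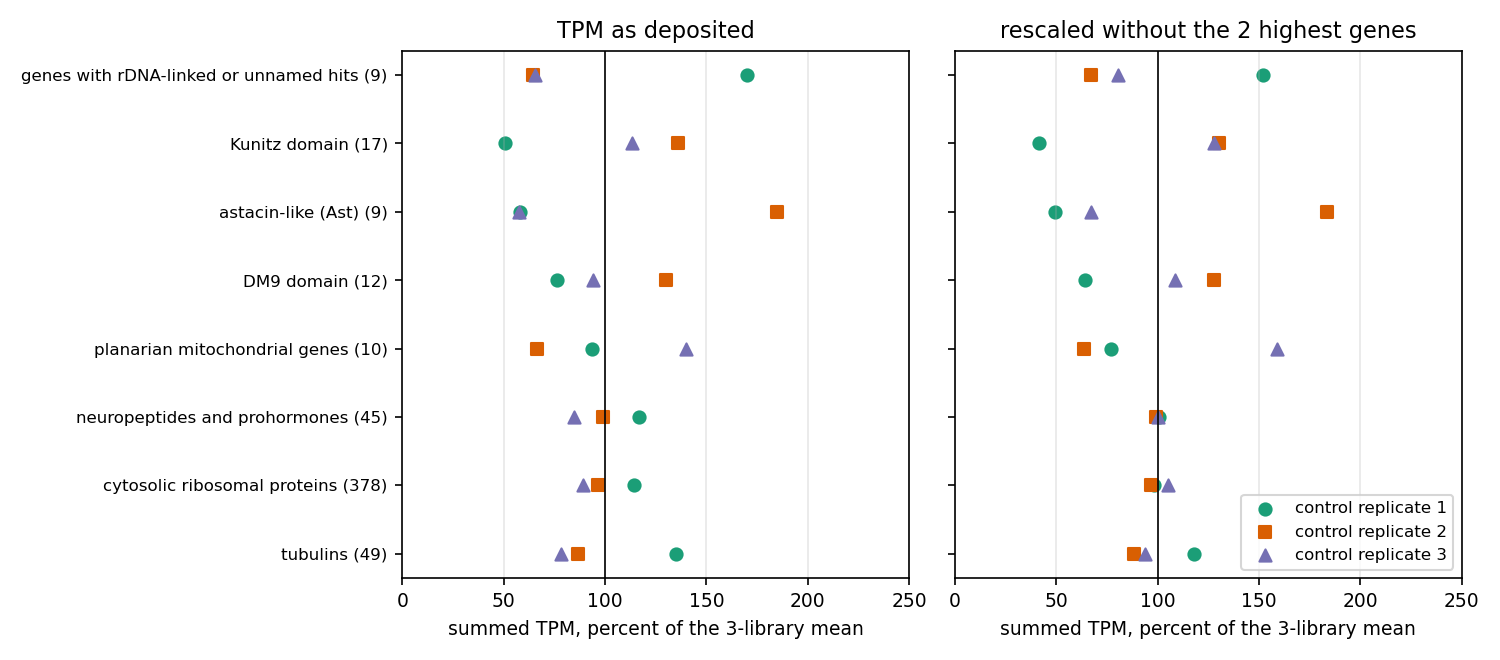
Summed TPM of 8 gene sets in each control library as a percent of the set's mean over the 3 libraries, as deposited (left) and rescaled without the 2 highest genes (right), with the number of genes in parentheses. Kunitz genes lie at 50.7% in library 1, astacin-like genes at 185% in library 2 and planarian mitochondrial genes at 140.1% in library 3, while neuropeptides lie between 99.3 and 101% after rescaling.

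Finally, some rows resembled other animals more than flatworms. Of 36 genes with a mitochondrial genome name, 10 had a flatworm hit and summed to 365, 259 and 547 TPM, while 7 had a hit in cattle or a close relative and summed to 496, 437 and 538 TPM. The highest of these 7, cytochrome c oxidase subunit I with a Bos javanicus hit (TRINITY_DN37867_c0_g10), had 229, 221 and 256 TPM. Another 8 with a human hit summed to 72.3, 45.3 and 95.4 TPM, and 7 with a mouse hit to 61.4, 41.0 and 40.2 TPM. The 13 genes of the vertebrate blood and liver list held 0.00461 ± 0.00149% of the total, and its 3 highest members had bacterial, plant and nematode hits, while some lower members had mammalian ones. Serum albumin with a human hit (TRINITY_DN30690_c0_g1, chosen after its values were seen) had 4.70, 3.62 and 2.34 TPM. Genes with a ciliate hit (76) held 0.125, 0.0901 and 0.0898%. What these hits mean for the source of the RNA was not tested.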

How the data were processed

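Polyadenylated RNA of whole worms was measured in 12 libraries, of which the 3 controls are described. The authors used Salmon, edgeR, cutadapt and FastQC, per the submitters' processing notes, with versions, settings and the assembler not given in the sources used here. Values of the deposited table were read as TPM: its header names no unit, the control libraries sum to 980546 to 986268, and Salmon reports TPM. Each listed gene reaches at least 2.01 TPM in some of the 12 libraries, so low genes may have been left out. The deposited lengths, in bases, run from 201 to 8278. Strand use in counting is not stated.

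Computed here, in Python 3.11.15 with pandas 2.3.3 and numpy 2.4.6, were means, SDs, CVs and shares over the 3 controls, with no filter and no test. Genes were named by a rule on mean TPM: the 10 highest of all, the 25 highest with a named protein, up to 3 per list, the 5 smallest and 5 largest CVs among the 100 highest named, and the 5 highest without a hit (116 genes). Lists, 23 of functions and 8 of cell types or other sources, are patterns on protein names, and a few members are misplaced. The members and lists were chosen with earlier results of these data known. The pseudocount for log2 values was 1. Alternatives were each library left out, a 1 TPM filter, rescaling without the 2 highest genes, median-ratio scaling, weighting by length, medians, a Swiss-Prot class and other list rules. The shares and counts were tested on simulated data.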

Additional observations from a re-analysis of the deposited data

How the results depend on the processing

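When each control library was rescaled without the 2 highest genes, flatworm hits held 25.4% of the rest in place of 13.9% of the total, other hits 43.8% in place of 24.3%, no hit 30.8% in place of 61.8%, and genes of any functional list 27.5% in place of 15.1%, while 217 genes in place of 6 reached 50%. Weighted by length, the same results were 23.1, 41.7, 35.2, 20.9% and 69 genes. Class taken from the Swiss-Prot hit alone gave 1.16% for flatworm hits and 72.6% for no hit, and by construction few planarian proteins are in that database. With medians over libraries 3 genes reached 50%, and with a library left out 3 to 10 did. Functional list members with a flatworm hit only, an alternative chosen after seeing the data, held 6.70%. The median CV of the 100 highest genes (18.3%) stayed within 1.5 times under every alternative run, 12.7 to 19.5% with a library left out. Of the 31 lists, 31 moved by more than their SD on rescaling, 25 on weighting by length, 28 with flatworm hits only, 1 when each gene counted once, and 0 with the 1 TPM filter. The 2 highest genes have no hit and are in no list, so leaving them out raises every list's share by construction. Genes that pass the 1 TPM filter held 98.6% of the total, so that filter could move most shares only little. Of the 116 named genes, 0 moved by more than their SD with median-ratio scaling. Its factors of 1.22, 0.929 and 0.899 for libraries 1, 2 and 3 largely offset each other in a mean, so this count says little. With a library left out, the mean of 11 of the 116 moved by over 1.5 times (7 without library 1, 3 without library 2, among them TCEN, and 1, the second highest gene, without library 3), and 0 of the 31 lists did. No paired analysis was possible because only the control group is described and no test was made. TPM gives no depth, so the precision of low values is unknown, and 3 libraries limit every CV.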

Other observations

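Genes named after Wnt, frizzled or Hox, families that act in the body axes of planarians, stood near the median of all genes and below the median of flatworm hits. Wnt proteins, frizzled receptors and their secreted relatives, which set tail and head identity, were found under 15 names (chosen after the values were seen). Of the 15, 12 reached at least 1 TPM in all 3 control libraries, against 53.9% of all genes and 86.7% of flatworm hits. Their median was 2.14 TPM, against 2.00 TPM for all genes and 5.41 TPM for flatworm hits. They averaged between 0.647 and 8.79 TPM and summed to 62.0, 41.2 and 43.3 TPM in libraries 1, 2 and 3. The highest was secreted frizzled-related protein B (TRINITY_DN37824_c2_g2), an antagonist of Wnt, with 11.0, 8.85 and 6.52 TPM. A Wnt gene of Dugesia japonica (TRINITY_DN27003_c0_g1) had 7.28, 5.12 and 4.89 TPM. The planarian growth factor ligands and receptors of the EGF family counted 10 genes with a median of 3.42 TPM, summing to 34.5, 33.9 and 31.8 TPM, with egf-2 (TRINITY_DN34649_c0_g1) highest at 5.41, 11.8 and 6.89 TPM. The 3 Hox genes with a flatworm hit had a median of 2.29 TPM and summed to 10.8, 5.22 and 6.59 TPM.

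Another 253 genes had the horseshoe bat Rhinolophus as the species of their annotation hit. They held 0.0613, 0.0468 and 0.0445% of TPM in libraries 1, 2 and 3. Of the 253, 58 reached at least 1 TPM in all 3, against 69.0% of all other hits. The Swiss-Prot hit of 233 of these genes named other organisms for the most part: 122 named Arabidopsis and 30 Oryza, both plants, and 4 named Homo. The highest of the 253 was a SUMO-conjugating enzyme UBC9 gene (TRINITY_DN32832_c0_g1), with 81.6, 88.1 and 70.9 TPM.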
